A study of Sus scrofa with 48 samples.

Results

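Potassium channel genes were followed in the hypothalamus and the ileum of weaned pigs. They were taken as every gene whose symbol begins with KCN, the root shared by the pore-forming subunits of potassium channels and by many of their auxiliary subunits. Of the 22924 genes counted, 87 carry such a symbol: 37 voltage-gated subunits, 8 calcium- or sodium-activated subunits, 14 inward rectifiers, 13 two-pore subunits and 15 auxiliary subunits or related proteins. Members with 10 or more counts in at least 6 libraries of either tissue numbered 80, of which 50 met that rule in both tissues, 25 in hypothalamus alone and 5 in ileum alone. The KCN symbols KCNA5 and KCNK12 were not analysed here.

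The study compared pigs (Sus scrofa) of low and high growth after weaning, the classes being set by average daily gain between day 0 and either day 7 or day 39. Bulk poly(A) RNA sequencing covered 8 groups of 6 libraries: hypothalamus day 39 low growth, day 39 high growth, day 7 low growth and day 7 high growth, and the same 4 groups in ileum. The labels name no litter, sex or breed and do not tell whether both tissues came from the same animals. P-values therefore measure the spread between the samples as labelled.

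Potassium channels let potassium leave or enter cells and so set the resting voltage and end action potentials. Voltage-gated (Kv) channels open on depolarisation, calcium-activated channels link calcium to voltage, inward rectifiers (Kir) hold the resting voltage and clear potassium in glia, and two-pore (K2P) channels carry background current. In neurons of the hypothalamus the ATP-sensitive channel of KCNJ11 and its partner ABCC8 couples glucose to firing. In the gut, epithelial channels such as KCNQ1 with KCNE3 return potassium across the basolateral membrane and keep up the driving force for chloride secretion, and the large-conductance channel KCNMA1 with KCNMB1 limits contraction of smooth muscle.

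In megacounts (M), libraries held 14.2 to 21.1 M in hypothalamus, with a median of 16.1 M, and 14.4 to 23.2 M in ileum, with a median of 16.7 M. Levels are given as CPM, counts scaled to a common library size after TMM normalization, which compare libraries but not genes, since CPM is not corrected for transcript length. Summed neuron markers (13 measured of 14) ran from 1163 to 5839 CPM in hypothalamus and from 31.3 to 87.9 CPM in ileum, and summed enterocyte markers (9 of 11) from 122 to 755.5 CPM in hypothalamus and from 4771 to 17028 CPM in ileum, so both tissues carried their own defining genes.

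Some libraries stood apart from their group. The library labelled hypothalamus day 39 low growth replicate 3 had 1576 CPM of ASMT and 306 CPM of AANAT, both enzymes of melatonin synthesis in the pineal gland, against at most 3.85 and 7.60 CPM in the other hypothalamus libraries. In the same library GAD1, which makes the transmitter GABA, was at 0.729 CPM, against at least 19.1 CPM in the others, and the myelin gene MBP at 175 CPM, against at least 915 CPM. Among the 75 members tested in hypothalamus, 30 had their lowest value there (beside 17.4% of all genes) and 10 their highest (beside 19.6%). Replicate 1 of that group had 3613 CPM of CGA, a pituitary hormone subunit with a median of 0.296 CPM over the hypothalamus libraries other than replicate 3. The library labelled ileum day 7 high growth replicate 1 had the lowest summed T and B cell markers (287 CPM, against at least 1032 CPM) and the highest summed smooth muscle markers (11916 CPM, against at most 5564 CPM), and 18 of the 54 members tested in ileum peaked there (33.3%, against 14.9% of all genes). Replicate 5 of that group held the lowest value for 15 of those 54 members (27.8%, against 31.7% of all genes). Some results are also given without hypothalamus day 39 low growth replicates 1 or 3 or without ileum day 7 high growth replicate 1. These are the libraries meant below by those that stood apart. Ileum day 7 high growth replicate 5 was kept in those settings. It held the lowest and the highest value for more of all genes than replicate 1 did (16.9% and 14.9% in replicate 1). Ileum results without the library that stood apart therefore still include a library that deviated more widely over all genes. The part of tissue composition in these libraries' channel values was not tested.

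**Figure D1:**
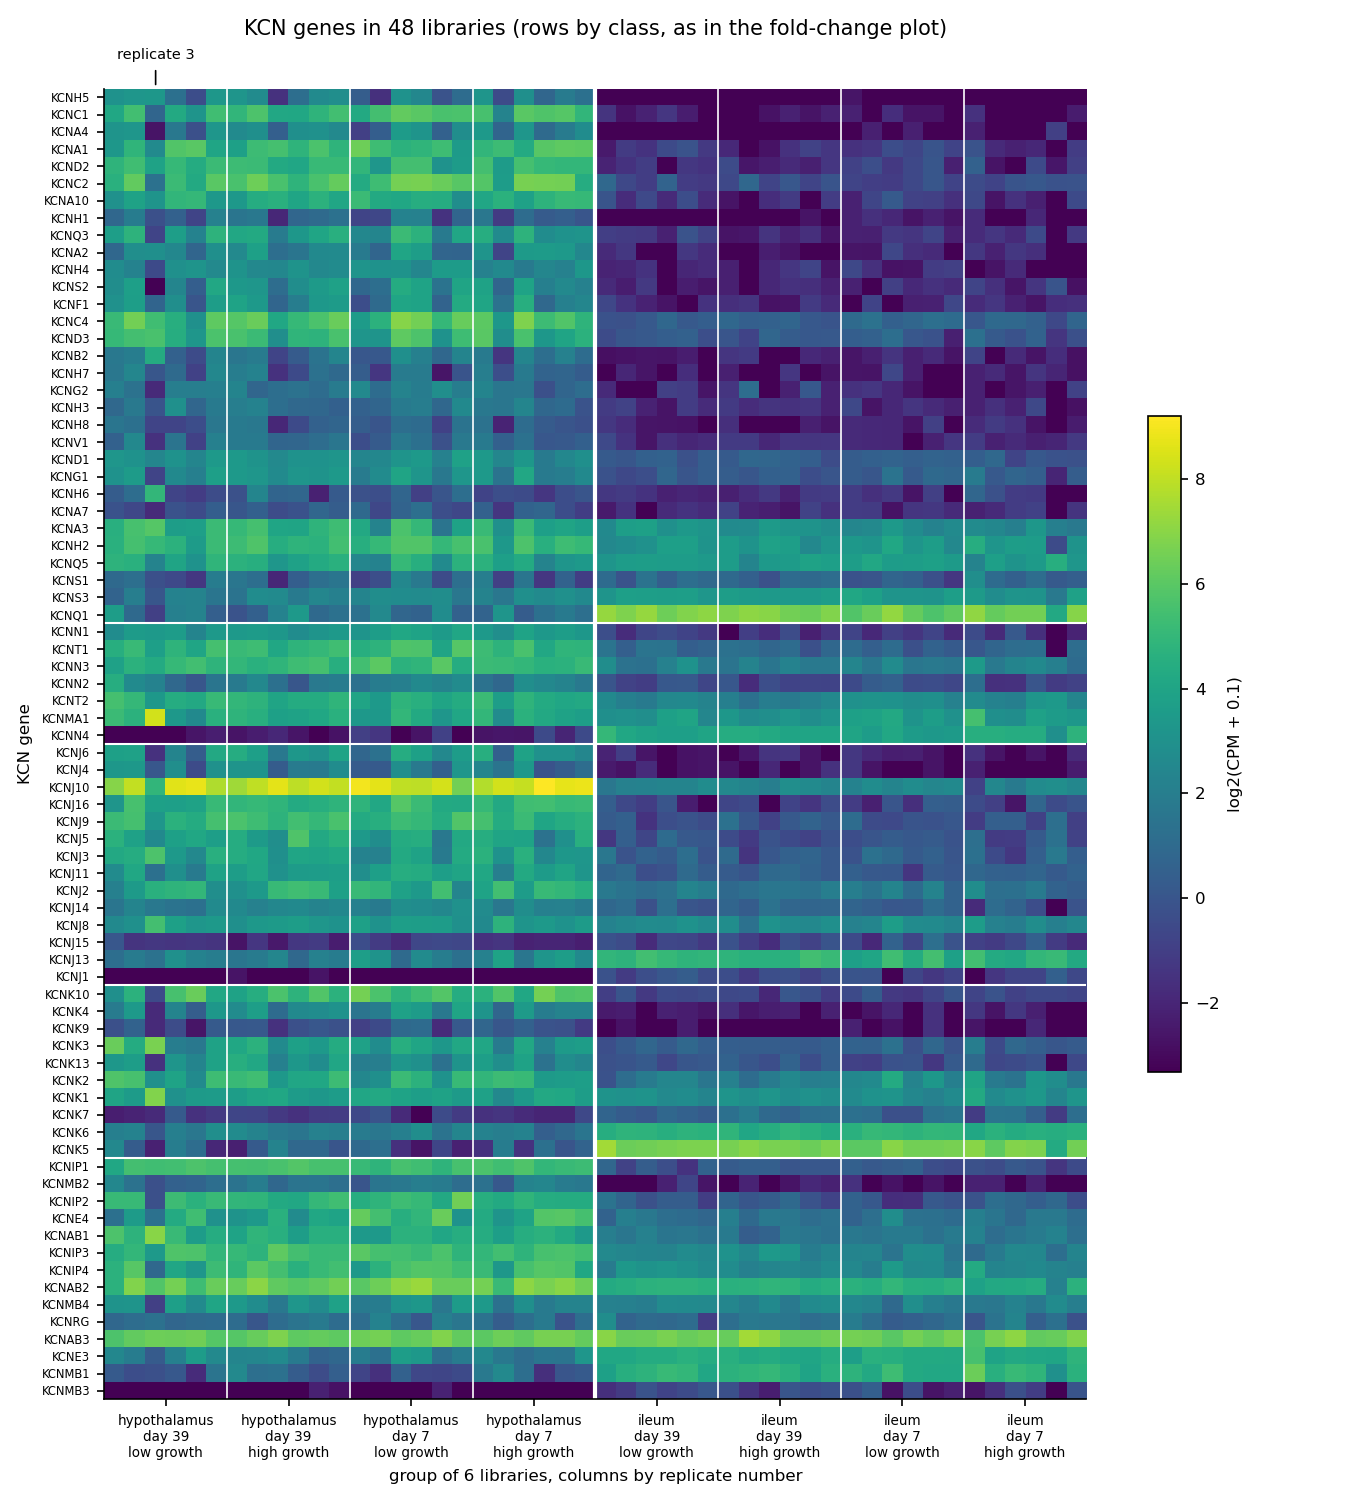
Level of 76 tested KCN genes, as log2(CPM + 0.1), with 1 column per library in 8 groups of 6, hypothalamus at left and ileum at right, and genes grouped by class. Most genes are brighter at left, a block of genes that includes KCNQ1, KCNK5, KCNN4 and KCNMB1 is brighter at right, and the marked library, hypothalamus day 39 low growth replicate 3, departs from its neighbours in both directions.

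The first comparison set hypothalamus against ileum over all 48 libraries with edgeR's quasi-likelihood test. At an adjusted p under 0.05, 64 of 80 members were higher in hypothalamus (beside 44.4% of all 16976 genes tested) and 14 were lower (beside 40.7%), while KCNRG and KCNS1 did not pass. In either direction 78 of 80 passed, beside 85.1% of all genes. The median log2 fold change was 3.19 over the members and 0.0809 over all genes. A member that entered through a single tissue had to differ, so the 50 that met the count rule in both tissues are given on their own: 39 were higher in hypothalamus and 9 lower. No share of all genes held to the same rule is given beside them, so whether 39 of 50 is unusual cannot be read. These are bulk tissues, in which fewer cells of a type and less RNA per cell cannot be told apart. In 26 of the 80 every hypothalamus library lay above every ileum library (beside 14.0% of all genes), and in 6 every one lay below (beside 10.8%). Without the library rich in pineal genes those numbers were 34 (beside 15.6%) and 6 (beside 11.9%). These counts also include members that met the count rule in 1 tissue alone, such as KCNC1 and KCNN4. Their distance from the shares of all genes can therefore not be read as a result on its own.

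**Figure D2:**
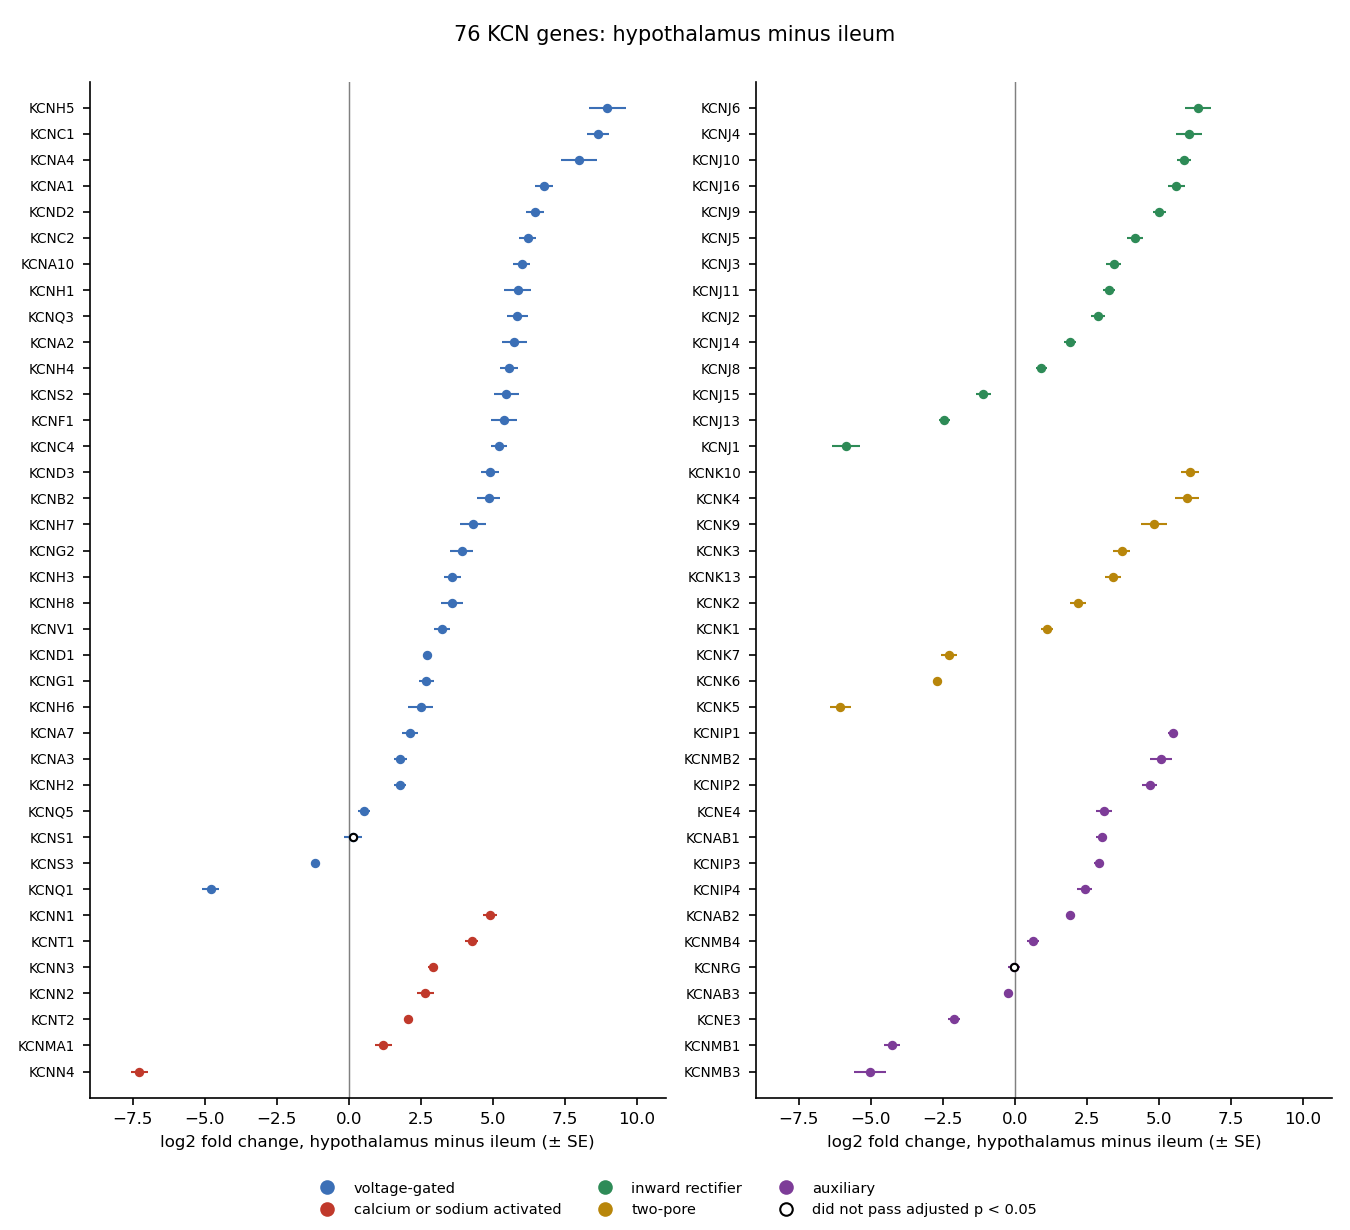
Log2 fold change, hypothalamus minus ileum, with its SE for 76 tested KCN genes, ordered by class and size; open circles are the 2 genes that did not pass. Points to the right of 0 are higher in hypothalamus; fitted values of KCNH5 and KCNJ1, which rest on 1 to 2 counts in 1 tissue, depend on the prior count.

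Voltage-gated subunits were higher in hypothalamus in 31 of 35 tested and lower in 3. Of these 35, 16 met the count rule in both tissues, 19 in hypothalamus alone and 0 in ileum alone. Those 19 had to differ by that rule, so the class count cannot be read as a result on its own. KCNQ3, a subunit of the neuronal M-current, had 0.486, 12.8 and 37.4 CPM in hypothalamus as lowest, median and highest value, against 0, 0.247 and 0.825 CPM in ileum (log2 fold change 5.84 ± 0.37, SE, n = 24 each). The 2 ranges overlapped only through the library rich in pineal genes, whose KCNQ3 value was the lowest, since the next hypothalamus value was 3.49 CPM.

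KCNC1, a Kv3 subunit for fast firing, had 1.58, 41.3 and 73.6 CPM in hypothalamus, against 0, 0.0559 and 0.297 CPM in ileum (log2 fold change 8.66 ± 0.38). KCND2, a Kv4 subunit of the A-type current in dendrites, had 8.32, 32.4 and 44.8 CPM in hypothalamus, against 0, 0.279 and 1.38 CPM in ileum (6.46 ± 0.31). The axonal subunit KCNA1 had 6.26, 34 and 85.5 CPM in hypothalamus, against 0, 0.295 and 0.847 CPM in ileum. None of these 3 overlapped between tissues. KCNH5 had 1946 counts in the 24 hypothalamus libraries and 1 count in the 24 ileum libraries, so no fold change is given for it. KCNA4 had 2243 counts in hypothalamus and 12 in ileum, where 20 libraries had none.

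KCNA2, which joins KCNA1 in axons, had 0.492, 6.01 and 16.2 CPM in hypothalamus, against 0, 0.0848 and 0.528 CPM in ileum (5.73 ± 0.43). Its ranges met only through hypothalamus day 7 high growth replicate 2, the lowest.

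Other Kv genes were present in both tissues. KCNH2, the ERG channel that repolarises the heart and is also found in smooth muscle, had 10.2, 33 and 56.2 CPM in hypothalamus, against 0.638, 9.14 and 22.5 CPM in ileum, with overlap (1.76 ± 0.20). KCNQ5, another M-current subunit, had 4.57, 17.9 and 33 CPM in hypothalamus and 4.76, 12 and 23 CPM in ileum, a small difference that passed (0.51 ± 0.21, adjusted p = 0.0212). KCNQ5 lay outside the rule for named genes and was picked for its small tissue difference after its values were seen.

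Among the voltage-gated subunits lower in hypothalamus were KCNQ1 and KCNS3. KCNQ1, on chromosome 2 (1675323 to 1989110, Sscrofa11.1), had 0.425, 2.33 and 12.6 CPM in hypothalamus, against 19.1, 101 and 150 CPM in ileum (-4.80 ± 0.30, adjusted p = 4.53e-19), without overlap. The silent subunit KCNS3, which alters Kv2 channels, had 0.911, 4.88 and 7.79 CPM in hypothalamus, against 3.19, 11 and 17.4 CPM in ileum (-1.18 ± 0.15). The tissues overlapped for KCNS3.

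Calcium- and sodium-activated subunits were higher in hypothalamus in 6 of 7 and lower in 1. Of these 7, 5 met the count rule in both tissues, KCNN1 in hypothalamus alone and KCNN4 in ileum alone. The small-conductance subunit KCNN3, which shapes the after-hyperpolarisation of neurons, had 14.1, 30.4 and 66.4 CPM in hypothalamus, against 1.96, 3.28 and 11.3 CPM in ileum (2.93 ± 0.17). Its relative KCNN1 had 4.92, 10.7 and 17.7 CPM in hypothalamus, against 0, 0.311 and 1.05 CPM in ileum (4.89 ± 0.24). The sodium-activated KCNT1 had 13.6, 28.6 and 59.5 CPM in hypothalamus, against 0, 1.71 and 2.73 CPM in ileum (4.26 ± 0.22). All 3 were apart between tissues. KCNN2, another small-conductance subunit, had 0.914, 3.73 and 22.5 CPM in hypothalamus, against 0.201, 0.572 and 2.19 CPM in ileum (2.66 ± 0.28), with overlap.

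KCNN4, the intermediate-conductance channel of epithelial and immune cells on chromosome 6 (50580016 to 50593518), went the other way. It had 0, 0.0616 and 0.610 CPM in hypothalamus, where 7 libraries had no count, against 7.51, 15.9 and 32.4 CPM in ileum (-7.27 ± 0.29, adjusted p = 1.57e-26). KCNN4 met the count rule in ileum alone and so had to differ, and this p cannot be read as evidence on its own. KCNMA1, the large-conductance (BK) pore on chromosome 14 (79345382 to 80106337), had 6.04, 18.0 and 330 CPM in hypothalamus, against 5.33, 9.25 and 45.7 CPM in ileum (1.2 ± 0.28). Both maxima came from libraries that stood apart, and without the one rich in pineal genes the log2 fold change was 0.75. With day 7 libraries alone the KCNMA1 difference did not pass (0.30).

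**Figure D3:**
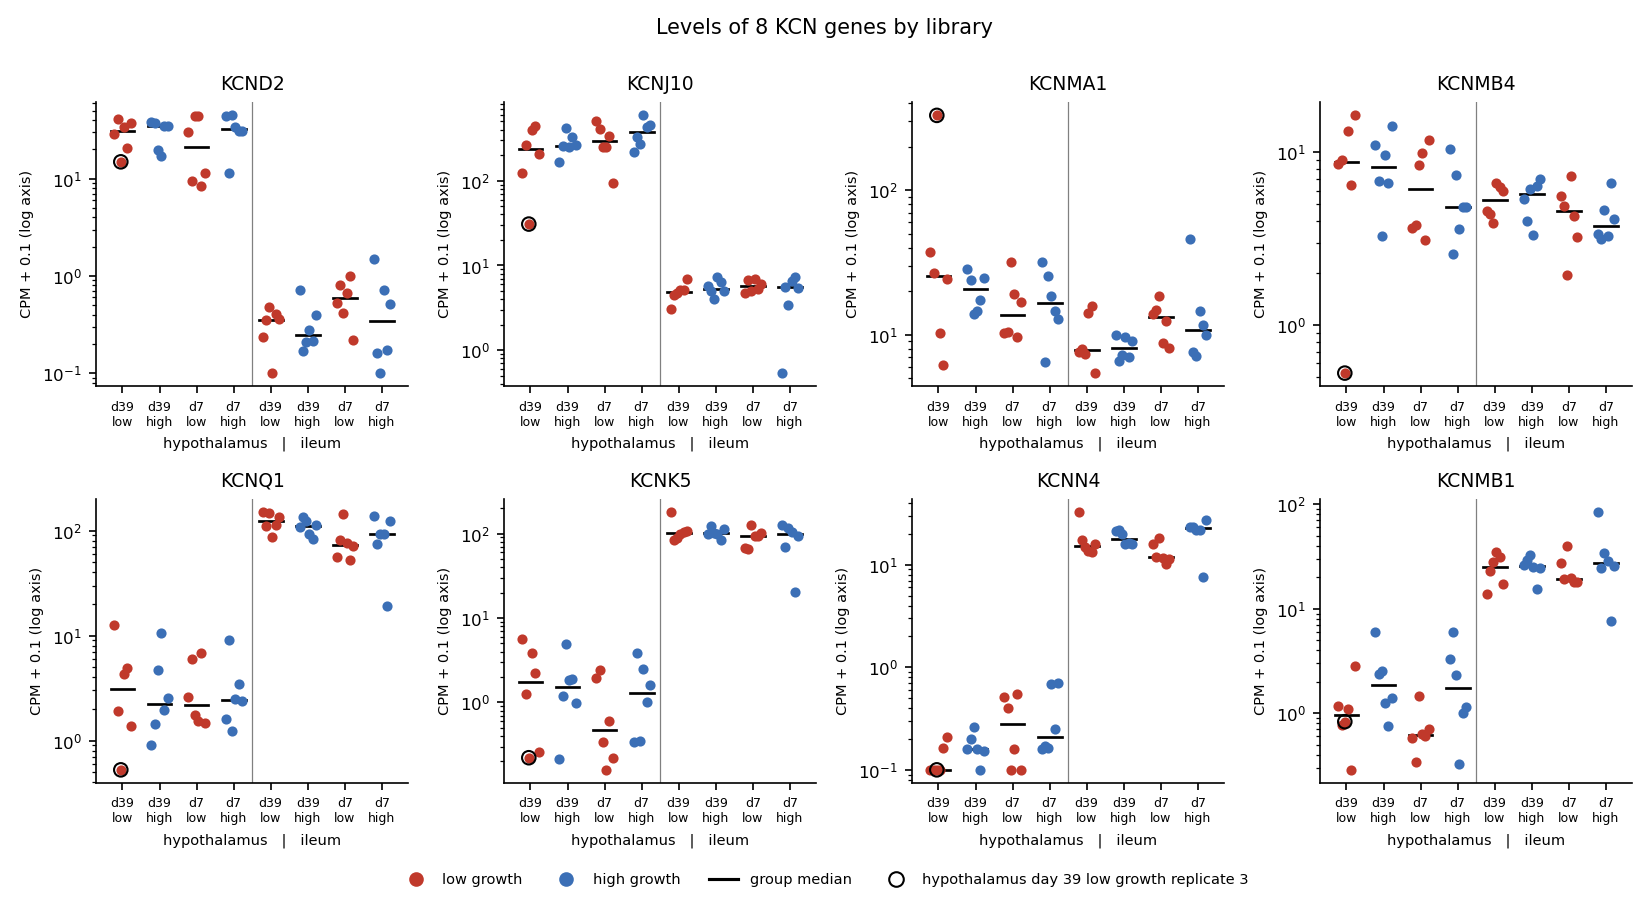
Level of 8 KCN genes in each of the 48 libraries, as CPM + 0.1 on a log axis, in the 4 hypothalamus groups and then the 4 ileum groups; lines are group medians and the ringed point is hypothalamus day 39 low growth replicate 3. KCND2 and KCNJ10 lie higher in hypothalamus, KCNQ1, KCNK5, KCNN4 and KCNMB1 lie higher in ileum, KCNMA1 and KCNMB4 overlap, and among hypothalamus libraries the ringed one is the lowest for KCNJ10, KCNMB4 and KCNQ1 and the highest for KCNMA1.

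Inward rectifiers were higher in hypothalamus in 11 of 14 and lower in 3. Of these 14, 10 met the count rule in both tissues. KCNJ4 and KCNJ6 met it in hypothalamus alone and KCNJ1 and KCNJ15 in ileum alone, so their direction follows in part from that rule. KCNJ10 (Kir4.1), the main potassium-clearing channel of astrocytes and oligodendrocytes, on chromosome 4 (90421956 to 90457406), had 30.7, 268 and 589 CPM in hypothalamus, against 0.438, 5.10 and 7.23 CPM in ileum (5.86 ± 0.24, adjusted p = 6.55e-26). KCNJ16, which pairs with KCNJ10, had 9.16, 28.7 and 60.0 CPM in hypothalamus, against 0, 0.534 and 1.67 CPM in ileum (5.59 ± 0.30). The tissues did not overlap for either glial subunit. The lowest KCNJ10 value in hypothalamus was that of the library rich in pineal genes, and the next was 94.1 CPM.

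The G-protein-gated subunits KCNJ3, KCNJ6 and KCNJ9, which carry the inhibitory response to many transmitters, were all higher in hypothalamus. KCNJ9 had 9.54, 32.3 and 54.9 CPM there, against 0.254, 0.888 and 2.48 CPM in ileum (5.01 ± 0.22). KCNJ6 had 0.243, 8.89 and 23.2 CPM in hypothalamus, against 0, 0.0638 and 0.408 CPM in ileum (6.36 ± 0.46). KCNJ3 had 3.30, 15.9 and 51.6 CPM in hypothalamus, against 0.267, 1.25 and 3.26 CPM in ileum. KCNJ3 and KCNJ9 were apart between tissues, and KCNJ6 overlapped through the library rich in pineal genes alone.

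The 2 pores of ATP-sensitive channels differed in their tissue contrast. KCNJ11, the pore of the neuronal and pancreatic form, had 2.37, 12.8 and 22.3 CPM in hypothalamus, against 0.28, 1.25 and 1.92 CPM in ileum (3.26 ± 0.20), and KCNJ8, the pore of the vascular form, had 6.06, 10.2 and 43.9 CPM in hypothalamus, against 2.47, 6.21 and 12.5 CPM in ileum (0.92 ± 0.18). KCNJ11 was apart between tissues and KCNJ8 overlapped. The log2 ratio of KCNJ8 to KCNJ11 counts had a median of -0.42 in hypothalamus, from -1.54 to 4.20, and of 2.12 in ileum, from 1.47 to 4.39. Its highest hypothalamus value was again in the library rich in pineal genes, and without it the range ended at 2.73.

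The inward rectifiers lower in hypothalamus were KCNJ13, KCNJ15 and KCNJ1. KCNJ13 (Kir7.1), a channel of transporting epithelia, had 1.77, 4.18 and 15.1 CPM in hypothalamus, against 13.6, 27.8 and 43.3 CPM in ileum (-2.46 ± 0.20). Its ranges met only at their ends. KCNJ15 (Kir4.2) was low in both tissues, with 0.0581, 0.284 and 0.953 CPM in hypothalamus against 0.174, 0.525 and 2.30 CPM in ileum (-1.10 ± 0.25). KCNJ1, the ROMK channel of the kidney, had 2 counts in all hypothalamus libraries together and 250 in all ileum libraries.

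The two-pore subunits were higher in hypothalamus in 7 of 10 and lower in 3. Of these 10, 7 met the count rule in both tissues. KCNK4 and KCNK9 met it in hypothalamus alone and KCNK7 in ileum alone, so their direction follows in part from that rule. KCNK5 (TASK-2), an acid-sensitive channel of epithelial cells on chromosome 7 (34617948 to 34656705), had 0.0592, 1.12 and 5.61 CPM in hypothalamus, against 20.3, 99.1 and 179 CPM in ileum (-6.06 ± 0.35, adjusted p = 2.44e-20). KCNK6 (TWIK-2) had 0.911, 4.05 and 7.22 CPM in hypothalamus, against 17.1, 25 and 33.3 CPM in ileum (-2.69 ± 0.15). KCNK7 had 0, 0.301 and 1.08 CPM in hypothalamus, against 0.354, 1.78 and 3.54 CPM in ileum (-2.29 ± 0.27). KCNK5 and KCNK6 were apart between tissues and KCNK7 overlapped.

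On the hypothalamus side KCNK10 (TREK-2), a stretch- and lipid-sensitive channel, had 0.608, 33.2 and 94.9 CPM, against 0.162, 0.565 and 1.16 CPM in ileum (6.08 ± 0.32). KCNK4 (TRAAK), of the same subfamily, had 0.182, 5.46 and 16.5 CPM in hypothalamus, against 0, 0.0956 and 0.313 CPM in ileum (5.98 ± 0.41). KCNK2 (TREK-1), the third of that subfamily, had 5.46, 21.9 and 53.2 CPM in hypothalamus, against 0.803, 4.36 and 19.9 CPM in ileum (2.20 ± 0.28). The first pair overlapped between tissues through the library rich in pineal genes, where both had their lowest value; KCNK2 overlapped more widely.

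KCNK1 (TWIK-1) had 5.70, 12.8 and 115.03 CPM in hypothalamus, against 4.42, 7.48 and 19.5 CPM in ileum (1.11 ± 0.20, and 0.78 without the library rich in pineal genes). That library held its maximum, and the next hypothalamus value was 18.9 CPM. KCNK9 (TASK-3) was low throughout, with 343 counts over the hypothalamus libraries and 14 over the ileum libraries.

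Auxiliary subunits were higher in hypothalamus in 9 of 14 and lower in 4, with KCNRG not passing. Of these 14, 12 met the count rule in both tissues, KCNMB2 in hypothalamus alone and KCNMB3 in ileum alone. KCNIP1, a calcium-binding partner of Kv4 channels, had 17.5, 44.6 and 57.8 CPM in hypothalamus, against 0.258, 0.955 and 1.65 CPM in ileum (5.48 ± 0.16, adjusted p = 7.01e-32). KCNIP2, of the same family, had 0.729, 28.4 and 88.5 CPM in hypothalamus, against 0.211, 1.08 and 2.59 CPM in ileum (4.67 ± 0.27). KCNAB2, a beta subunit of Kv1 channels, had 26.2, 83.7 and 159 CPM in hypothalamus, against 4.47, 24 and 31.6 CPM in ileum (1.92 ± 0.15). KCNIP1 alone of these 3 was apart between tissues with every library included. KCNIP4, also of that family, had 1.76, 37.3 and 66.1 CPM in hypothalamus, against 3.57, 5.77 and 20.3 CPM in ileum (2.41 ± 0.25). Its lowest hypothalamus value was that of the library rich in pineal genes. The BK subunit KCNMB2 had 0.729, 2.68 and 5.45 CPM in hypothalamus, against 0, 0.0564 and 0.516 CPM in ileum (5.06 ± 0.38), without overlap.

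KCNE3, the partner that holds epithelial KCNQ1 channels open, was lower in hypothalamus with 1.09, 3.72 and 12.6 CPM, against 12.8, 19.5 and 46.7 CPM in ileum (-2.12 ± 0.21). KCNMB1, the BK subunit of smooth muscle on chromosome 16 (53616532 to 53631197), had 0.187, 1.03 and 5.93 CPM in hypothalamus, against 7.58, 25.1 and 84.1 CPM in ileum (-4.28 ± 0.28). Both were apart between tissues. KCNMB4, the neuronal BK subunit, had 0.425, 7.02 and 16.3 CPM in hypothalamus, against 1.85, 4.51 and 7.22 CPM in ileum (0.62 ± 0.21, adjusted p = 0.00722), and was named beside KCNMB1 although the rule for named genes did not reach it. KCNMB3 had 5 counts over the hypothalamus libraries and 212 over the ileum libraries. KCNAB3, a Kv1 beta subunit picked after its values were seen, was the remaining lower one, with 52.4, 76.9 and 111.9 CPM in hypothalamus against 49.5, 91.0 and 174 CPM in ileum (-0.25 ± 0.10, adjusted p = 0.0174). KCNRG, a regulator of Kv channel assembly, and the Kv subunit KCNS1 did not pass (-0.04 ± 0.22 and 0.14 ± 0.31, adjusted p = 0.864 and 0.683).

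All tested members, those not described one by one included, lay between -4.80 and 8.97 on the log2 scale in the voltage-gated class, -7.27 and 4.89 in the calcium- or sodium-activated, -5.86 and 6.36 in the inward rectifier, -6.06 and 6.08 in the two-pore and -5.04 and 5.48 in the auxiliary class. The class medians were 4.32, 2.66, 3.34, 2.80 and 2.17 in the same order. The class counts, ranges and medians include members that met the count rule in 1 tissue alone, 19 of them voltage-gated. The classes can therefore not be ranked by these values. The voltage-gated top is the fitted value of KCNH5 and the inward rectifier bottom that of KCNJ1, which depend on the prior count.

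The log2 ratio of KCNMB1 to KCNMB4 counts had a median of -2.68 in hypothalamus and of 2.40 in ileum, with ranges of -4.87 to 1.23 and 0.217 to 4.68. That of KCNN4 to KCNN3 ran from -10.6 to -5.26 in hypothalamus and from 0.682 to 3.78 in ileum, without overlap. Since each ratio compares 2 genes of different length, its difference between tissues can be read and its sign cannot.

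Some members that lie side by side in the genome differed in opposite directions and others in the same one. Coordinates in Sscrofa11.1 were at hand for 84 members, and 26 of them overlap another annotated gene. KCNMB1 lies wholly within the span of KCNIP1 (53272652 to 53694974 on chromosome 16), yet KCNIP1 was higher in hypothalamus and KCNMB1 in ileum. The sources used here do not tell whether counting used strand, so their values are separate only as far as the authors' assignment of reads to transcripts holds. KCNJ1 and KCNJ5, 24015 bases apart on chromosome 9, differed in the same manner (log2 fold change 4.16 for KCNJ5). KCNJ9 and KCNJ10, 9529 bases apart on chromosome 4, were both higher in hypothalamus, as were KCNJ2 and KCNJ16, 12540 bases apart on chromosome 12.

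Genes that act with these channels were tested in the same fit. Of the partners of ATP-sensitive and Kv4 channels all 4 were higher in hypothalamus. The sulfonylurea receptor ABCC8, the partner of KCNJ11, had 2.73, 12.3 and 26.6 CPM in hypothalamus, against 0.177, 0.590 and 1.28 CPM in ileum (4.26 ± 0.24), and ABCC9, the partner of KCNJ8, had 2.44, 5.81 and 9.42 CPM in hypothalamus, against 0.616, 1.26 and 6.71 CPM in ileum (1.60 ± 0.23). Both receptors went the same way as the pores they serve. Of 3 tested gamma subunits of BK channels, LRRC55 and LRRC38 were higher in hypothalamus and LRRC26, known from secretory epithelia, was lower (-2.27 ± 0.25).

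Of 6 hyperpolarization-activated or cyclic nucleotide-gated channels tested (10 listed) 5 were higher in hypothalamus and none lower. Of 11 sodium channel genes tested (14 listed) 8 were higher and 2 lower. Of 7 pump genes tested (17 listed) 5 were higher and 2 lower, and of 7 cation-chloride cotransporters (7 listed) 4 were higher and 1 lower. The cotransporter SLC12A5, which keeps neuronal chloride low, was among the higher ones (8.03 ± 0.34). In each of the other 9 comparisons none of these lists had a gene at an adjusted p under 0.05.

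Members varied widely between libraries of 1 group. The median within-group SD of log2(CPM + 0.1) was 1.02 over the members in hypothalamus, beside 0.453 over all genes tested, and 0.877 beside 0.421 without the library rich in pineal genes. In ileum it was 0.634 for members and 0.461 for all genes. Members and all genes were not matched for level, on which this SD can depend, so the wider spread cannot be read as a trait of the channels.

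To describe that variation, 10 channel and marker pairs were related across the 24 libraries of a tissue on log2 scales, of which 9 are given. KCNMB1 followed summed smooth muscle markers in ileum (r = 0.890, rho = 0.876, permutation p = 1e-05 for both, the smallest 100000 permutations give, adjusted p = 5e-05 and 3.33e-05). The relation was r = 0.822 without the 2 libraries farthest from the median marker level, 0.826 without the library that stood apart in ileum, 0.934 on day 39 and 0.896 on day 7. KCNQ1 followed enterocyte markers in ileum (r = 0.679, rho = 0.857, permutation p = 0.00018 and 1e-05, adjusted p = 0.0006 and 3.33e-05; 0.643 without the 2 farthest, 0.665 without the library that stood apart, 0.736 on day 39 and 0.597 on day 7). For both genes, the level in a library went with the marker sum of that library within both days. Ileum day 7 high growth replicate 5 held the lowest ileum values of KCNQ1 and KCNK5. In the ileum relations it was kept when the farthest libraries or the one that stood apart were left out.

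KCND2 followed neuron markers in hypothalamus (r = 0.536, rho = 0.735, permutation p = 0.0069 and 7e-05, adjusted p = 0.00986 and 0.000175; r = 0.479 without the 2 farthest, permutation p = 0.0234; 0.568 without the 2 hypothalamus libraries that stood apart, 0.507 on day 39 and 0.587 on day 7). For 4 other pairs the permutation p was above 0.05 without the 2 farthest libraries. KCNC1 with neuron markers had r = 0.588 and rho = 0.682 (adjusted permutation p = 0.0051 and 0.0008) and 0.400 without them (permutation p = 0.0579), but 0.832 without the 2 libraries that stood apart, with 0.455 on day 39 and 0.850 on day 7. KCNJ10 with astrocyte markers had r = 0.631 and rho = 0.415 (adjusted permutation p = 0.00182 and 0.0556) and 0.344 without them (permutation p = 0.118), the farthest being those that stood apart, with 0.833 on day 39 and 0.448 on day 7.

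In ileum, KCNMA1 with smooth muscle markers had r = 0.673 and rho = 0.457 (adjusted permutation p = 0.0029 and 0.0381) and 0.333 without the 2 farthest (permutation p = 0.13), and 0.387 without the library that stood apart, with 0.623 on day 39 and 0.698 on day 7. KCNK5 with enterocyte markers had r = 0.514 and rho = 0.550 (adjusted permutation p = 0.0113 and 0.00985) and 0.399 without them (permutation p = 0.0574), and 0.494 without the library that stood apart, with 0.506 on day 39 and 0.442 on day 7. KCNJ16 with astrocyte markers (r = 0.127, rho = -0.068, adjusted permutation p = 0.616 and 0.754; -0.389 without the 2 farthest; 0.453 on day 39 and -0.285 on day 7) and KCNA3 with T and B cell markers (r = -0.099, rho = -0.259, adjusted permutation p = 0.655 and 0.247; -0.242 without the 2 farthest and -0.330 without the library that stood apart; 0.044 on day 39 and -0.382 on day 7) did not pass. Channel and markers of 1 library share its RNA and depth.

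**Figure D4:**
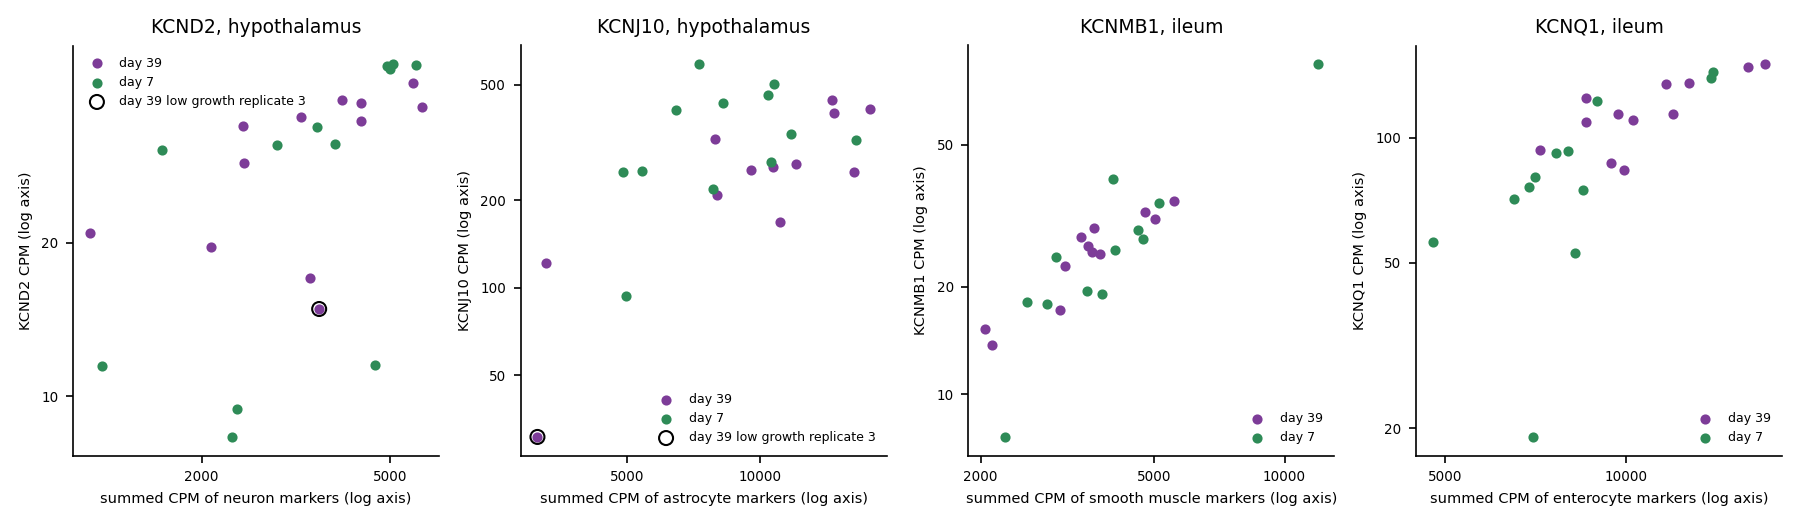
Level of a KCN gene (CPM, log axis) against the summed CPM of a cell type's markers (log axis) in the 24 libraries of a tissue, coloured by day; the ringed point is hypothalamus day 39 low growth replicate 3. KCND2 with neuron markers has r = 0.536, KCNMB1 rises with smooth muscle markers and KCNQ1 with enterocyte markers, and KCNJ10 with astrocyte markers is looser, with r = 0.344 without the 2 farthest libraries.

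Day 39 was set against day 7 within each tissue, over both growth classes. In hypothalamus 0 of 75 members passed edgeR's test, where 0.0315% of all genes did, and 11 of 75 (14.7%, beside 9.62% of all genes) had an unadjusted p under 0.05. Among those 11, KCNAB1, KCNH6, KCNK3 and KCNMA1 had their highest hypothalamus value in the library rich in pineal genes, and KCNC1 and KCNS3 their lowest. No such count is given without that library. DESeq2 and limma called 0 members as well. The median log2 fold change was 0.0221 over the members and 0.0104 over all genes.

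Among the members of lowest p in hypothalamus was KCNE4, which did not pass. KCNE4, an auxiliary subunit that inhibits some Kv channels, had 2.33, 9.83 and 41.1 CPM in low growth and 6.58, 12.9 and 24.8 CPM in high growth on day 39, against 8.14, 37.0 and 80.4 CPM in low growth and 8.86, 33 and 60.9 CPM in high growth on day 7 (-1.49 ± 0.46, edgeR adjusted p = 0.397). The days overlapped, and without the libraries that stood apart the log2 fold change was -1.23.

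In ileum 0 of 54 members passed on day 39 against day 7, where 0.439% of all genes did, and 7 of 54 (beside 8.85% of all genes) had an unadjusted p under 0.05. The sodium-activated KCNT2 had 3.49, 5.17 and 6.11 CPM in low growth and 2.34, 4.0 and 5.65 CPM in high growth on day 39, against 4.49, 7.74 and 8.54 CPM in low growth and 4.12, 5.86 and 10.8 CPM in high growth on day 7. Its log2 fold change was -0.65 ± 0.18 (edgeR adjusted p = 0.121), and DESeq2 alone called it (-0.66, adjusted p = 0.0286). KCNK2 averaged 3.66 ± 1.48 CPM on day 39 and 7.66 ± 5.38 CPM on day 7 (SD, n = 12 each; -1.06 ± 0.33, edgeR adjusted p = 0.225). KCNA3, the Kv1.3 channel of T cells, averaged 8.97 ± 2.56 CPM on day 39 and 6.06 ± 2.25 CPM on day 7 (SD, n = 12 each; 0.57 ± 0.19, edgeR adjusted p = 0.261). The days overlapped in all 3. The members' median was -0.0261, with 26 of 54 above 0, beside -0.0193 for all genes. Without day 7 high growth replicate 1 it was 0.0859, with 35 of 54 above 0, beside -0.00728.

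The difference between tissues of the day effect, tested over 48 libraries, called 0 of 80 members, where 0.0295% of all genes were called, and 17 of 80 (21.2%, beside 13.4%) had an unadjusted p under 0.05. KCNMA1, KCNAB1, KCNH6 and KCNK3, whose hypothalamus values peaked in the library rich in pineal genes, were among those 17. So were KCNA4, KCNIP3, KCNS3 and KCNT2, whose lowest hypothalamus value was there. No such count is given without that library. KCNN4 came nearest, with a day effect lower in hypothalamus than in ileum by 2.26 on the log2 scale (-2.26 ± 0.59, edgeR adjusted p = 0.128). DESeq2 alone called it (-2.42, adjusted p = 0.0272). In hypothalamus KCNN4 never exceeded 11 counts in a library, so that side of the difference rests on a few reads.

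Low growth was then set against high growth within each tissue and day, the contrast the study was built on. No gene passed edgeR's adjusted p of 0.05 in any of the 4 comparisons (0.0% of all genes in each), members included. DESeq2 and limma called 0 members. Members with an unadjusted p under 0.05 numbered 3 of 75 in hypothalamus on day 39 (4.0%, beside 5.45% of all genes), 1 of 75 on day 7 (1.33%, beside 7.67%), 0 of 54 in ileum on day 39 (beside 1.06%) and 5 of 54 on day 7 (9.26%, beside 5.65%). A p that misses the threshold does not show that the growth classes were alike.

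In hypothalamus on day 39 the 3 lowest p-values belonged to genes that peaked in the library rich in pineal genes. KCNAB1, a Kv1 beta subunit, had 12.2, 31.2 and 126 CPM in low growth and 12.3, 23.7 and 29.2 CPM in high growth (1.12 ± 0.41, edgeR adjusted p = 0.723). KCNMA1 had 6.04, 25.6 and 330 CPM in low growth and 13.8, 20.6 and 28.3 CPM in high growth (1.85 ± 0.69, edgeR adjusted p = 0.726). KCNK1 had 8.10, 11.6 and 115.03 CPM in low growth and 9.68, 12.2 and 17.5 CPM in high growth (1.16 ± 0.50, edgeR adjusted p = 0.849). Without that library the log2 fold changes were 0.49 for KCNAB1, 0.05 for KCNMA1 and -0.16 for KCNK1, and without replicate 1 as well they were 0.17, -0.29 and -0.32.

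The members' median moved with that library too. On day 39 in hypothalamus 27 of 75 had a log2 fold change above 0, with a median of -0.14, beside 53.7% of all genes and a median of 0.02. Without the library rich in pineal genes 33 of 75 were above 0 and the median was -0.02. Without replicate 1 as well 30 of 75 were above 0 and the median was -0.05. Shares of all genes are not given for these settings.

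**Figure D5:**
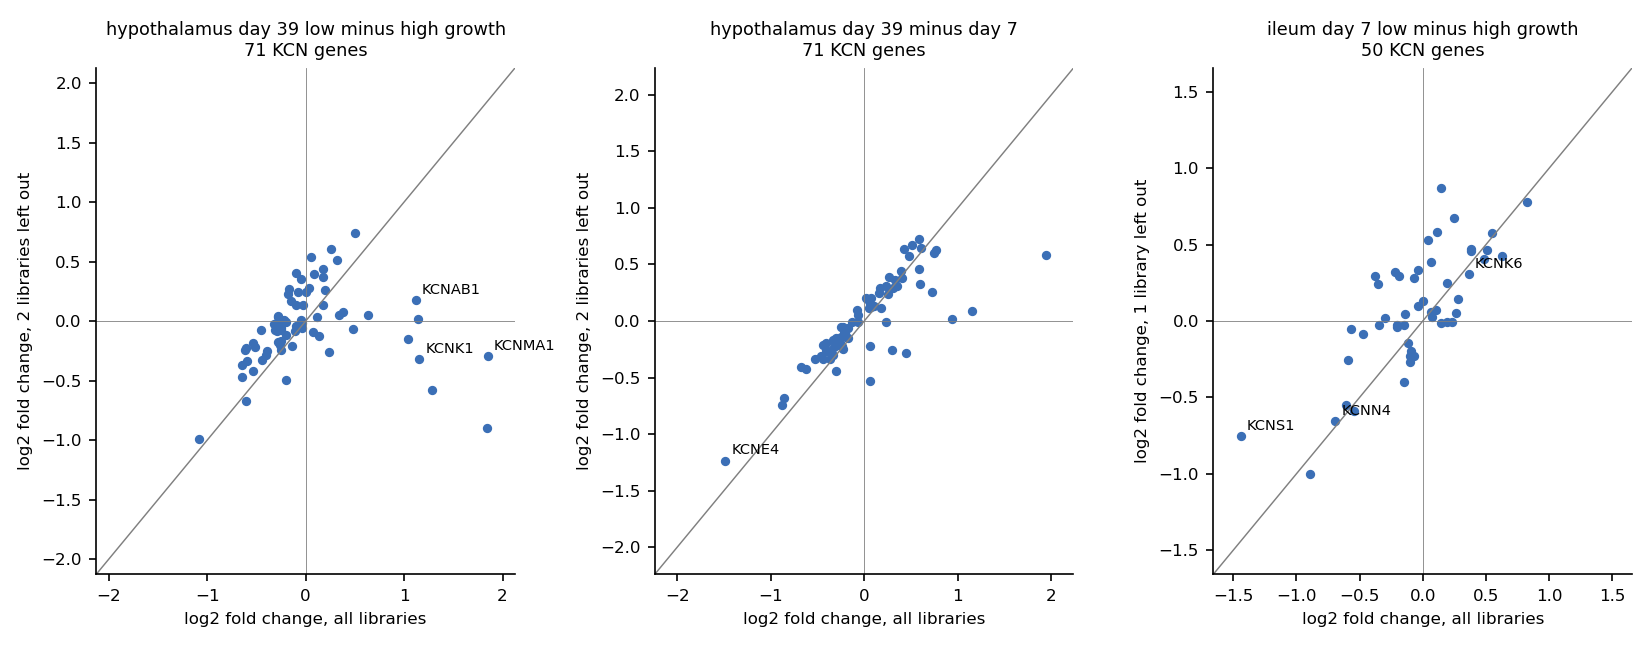
Log2 fold change of the KCN genes shown with all libraries (x axis) against the same without the libraries that stood apart (y axis) for 3 comparisons: hypothalamus day 39 low minus high growth and hypothalamus day 39 minus day 7 without day 39 low growth replicates 1 and 3, and ileum day 7 low minus high growth without high growth replicate 1; the diagonal marks equal values and genes among the 3 of lowest p are named. In the first panel KCNMA1 and KCNK1 move below 0, and in the second KCNE4 stays near the diagonal.

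In hypothalamus on day 7 KCNMB1 had 0.238, 0.520 and 1.36 CPM in low growth and 0.223, 1.63 and 5.84 CPM in high growth (-1.84 ± 0.65, edgeR adjusted p = 0.549). The top value was in high growth replicate 2, which also had the highest summed smooth muscle markers in hypothalamus (586 CPM, against a median of 180 CPM), and without it the log2 fold change was -1.31. The electrically silent subunit KCNG2 (0.85 ± 0.48) and the Kv12 subunit KCNH4 (0.69 ± 0.38) followed, both with an edgeR adjusted p above that of KCNMB1. The members' median was 0.0868, beside 0.01 for all genes.

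In ileum on day 39 the lowest p belonged to KCNK7, with 0.951, 1.28 and 1.72 CPM in low growth and 1.5, 2.23 and 3.54 CPM in high growth (-0.81 ± 0.43, edgeR adjusted p = 0.999). KCNJ5 (0.72 ± 0.48) and KCNAB1 (0.40 ± 0.27) followed at the same adjusted p. The members' median was -0.0189 and that of all genes -0.0039.

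In ileum on day 7 KCNS1, a silent subunit that modifies Kv2 channels, had 0.295, 0.835 and 1.59 CPM in low growth and 1.06, 1.66 and 7.20 CPM in high growth (-1.44 ± 0.45, edgeR adjusted p = 0.773). Its top value was in high growth replicate 1, the library poor in lymphocyte markers, and without it the log2 fold change was -0.75. KCNN4 had 9.98, 11.7 and 18.3 CPM in low growth and 7.51, 22.5 and 27.1 CPM in high growth (-0.70 ± 0.25, edgeR adjusted p = 0.790). Its lowest high growth value was in replicate 5, without which the log2 fold change was -0.85. KCNK6 had 24.9, 30.5 and 33.3 CPM in low growth and 17.7, 23 and 25.2 CPM in high growth, ranges that met at 1 end only (0.36 ± 0.14, edgeR adjusted p = 0.790). The members' median was -0.0167, with 27 of 54 above 0, beside -0.0516 for all genes. Without replicate 1 of the high growth group it was 0.0875, with 33 of 54 above 0, beside -0.0381.

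The growth effect was compared between days in each tissue by an interaction contrast. It called 0 of 75 members in hypothalamus and 0 of 54 in ileum with edgeR (0.0% of all genes in each), with 2 and 1 members at an unadjusted p under 0.05 (beside 7.77% and 3.01% of all genes). DESeq2 and limma called 0 members in both. In hypothalamus the lowest p was that of the inward rectifier KCNJ14, which had 2.36, 2.95 and 6.25 CPM in low growth and 4.39, 5.47 and 6.09 CPM in high growth on day 39, and 3.5, 6.11 and 8.08 CPM in low growth and 3.02, 4.33 and 6.96 CPM in high growth on day 7 (-0.83 ± 0.37, edgeR adjusted p = 0.627). In ileum it was that of KCNS1 (1.54 ± 0.62, edgeR adjusted p = 0.987), and 0.85 without day 7 high growth replicate 1.

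The count rule left out 7 members: KCNE1, KCNG3, KCNK15, KCNK16, KCNK17, KCNU1 and KCNV2. Nearest to the rule from outside were KCNE1, the cardiac partner of KCNQ1, KCNG3 and KCNK17, each with 10 or more counts in 4 libraries of a tissue, and nearest from inside was KCNJ15 with 11 libraries of ileum. KCNK17 (TALK-2), which lies 54626 bases from KCNK5 on chromosome 7, had 0 counts in all 24 hypothalamus libraries and 152 over the ileum libraries, with at least 1 count in each.

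KCNV2, a silent subunit known from photoreceptors, was named after its values were seen. It had 1507 counts (91.6 CPM) in the library labelled hypothalamus day 39 low growth replicate 3, at most 0.635 CPM in the other hypothalamus libraries, and 0 counts in every ileum library. The photoreceptor and pineal transcription factor CRX was at 760 CPM in that library, against at most 0.138 CPM in the others.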

How the data were processed

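Poly(A) RNA of 48 libraries was sequenced as paired reads, per the labels. The authors deposited estimated counts per Ensembl gene and a normalized signal table in which each library's counts are multiplied by 1 factor. Trim Galore, kallisto and DESeq2 with the build Sscrofa11.1 are named per the submitters' processing notes, and the sources used here give no versions, annotation release or strand. The members and gene lists were chosen with earlier results of these data known.

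IDs were matched to symbols by the Sscrofa11.1 gene table, which names 14894 of 22924, and coordinates came from RefSeq. Estimated counts, 53.0% of them not whole, were rounded. Genes kept by filterByExpr (minimum count 10, total 15) were tested with edgeR 4.0.16 in R 4.3.3 (quasi-likelihood F test, TMM, Benjamini-Hochberg adjustment over all genes), in 24-library fits within a tissue and a 48-library fit between tissues. The standard error is the log2 fold change over the square root of F. DESeq2 1.42.0, limma 3.58.1, other scalings and filters, the deposited signal as log2(signal + 1), a test against 2-fold, a block on library number and leaving out each library were tried. The scripts were tested on simulated data.

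Genes were named by rule: the 3 called members of highest and of lowest log2 fold change per class between tissues, 28 members fixed by symbol, and elsewhere the 3 members of lowest p where none was called. Some genes that this rule names are not reported here, and counts include them. Counting depth limits members near 0, and the highest Spearman correlation between 2 libraries of a tissue was 0.986.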

Additional observations from a re-analysis of the deposited data

Results flagged for a closer look

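Within each group of 6, a library's value was set apart when its gap to the nearest other relative to the group's range passed Dixon's 95% critical value. Chance sets apart about 1 in 20 groups, and 35 of 348 sets over 53 named members were. No share of all genes set apart in the same groups is given, so no excess particular to the members can be read. No cause was tested for any value set apart.

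In hypothalamus day 7 high growth replicate 2, KCNA2 was at 0.492 CPM (others at least 5.49), KCNAB2 at 35.9 CPM (at least 85.4), KCNC1 at 4.71 CPM (at least 29.7), KCND2 at 11.5 CPM (at least 31) and KCNJ16 at 19.1 CPM (at least 33), all low. In hypothalamus day 39 low growth replicate 3, the library rich in pineal genes, KCNG2 was at 0.182 CPM, KCNH4 at 0.608 CPM and KCNIP2 at 0.729 CPM, all low, and KCNK1 at 115.03 CPM (others at most 15.7). KCNIP1 was at 17.5 CPM in replicate 1 of that group (others at least 41.0) and at 57.8 CPM in hypothalamus day 39 high growth replicate 4 (others at most 48.6). Hypothalamus day 39 high growth replicate 3 was low for KCNH1 at 0.162 CPM, KCNJ3 at 7.39 CPM, KCNK9 at 0.244 CPM and KCNS1 at 0.162 CPM.

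In ileum day 7 high growth replicate 5, KCNAB2 was at 4.47 CPM, KCNH2 at 0.638 CPM (others at least 8.61), KCNK5 at 20.3 CPM (at least 69.0), KCNN4 at 7.51 CPM (at least 21.7), KCNQ1 at 19.1 CPM (at least 74.6) and KCNT1 at 0.0 CPM, all low. In replicate 1 of that group KCNIP4 was at 20.3 CPM and KCNS1 at 7.20 CPM, both high, and KCNJ10 at 0.438 CPM, low. In day 7 low growth replicate 3, KCNE4 at 6.87 CPM and KCNJ8 at 12.5 CPM were high. KCNJ11 was at 0.28 CPM in day 7 low growth replicate 4 and KCNT2 at 4.49 CPM in replicate 6, both low.

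In ileum day 39 low growth replicate 1, KCNK5 at 179 CPM (others at most 107) and KCNN4 at 32.4 CPM (at most 17.3) were high. In day 39 high growth, KCNJ3 at 0.267 CPM and KCNJ8 at 2.47 CPM were low in replicate 2, KCNJ16 at 0.0 CPM in replicate 3, and KCNMB1 at 15.2 CPM and KCNT1 at 0.725 CPM in replicate 5.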

How the results depend on the processing

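Between tissues 78 of 80 members passed, 78 with each library left out in turn, and from 69 with the test against 2-fold to 83 with no filter on low counts. The fit with no filter also tested members below the count rule, so its 83 is not out of 80. Shares of all genes are not given for the settings of this section, so its counts cannot be set against all genes. The other 9 comparisons called 0 members, 0 with each library left out in turn, and 0 in the other settings tried except that DESeq2 called 1, KCNT2, in ileum on day 39 against day 7 and 1, KCNN4, in the difference between tissues of the day effect. In hypothalamus on day 39, the growth effect of KCNK1 was -0.16 without low growth replicate 3 and -0.32 without replicates 1 and 3, a setting chosen after seeing the data, which also gave -0.29 for KCNMA1 and -0.10 for its difference of growth effects between days. The cause was not tested. The tissue difference no longer passed for KCNMA1 with day 7 libraries alone, nor, against 2-fold, for 9 members, among them KCNAB3, KCNJ15, KCNJ8, KCNK1, KCNMA1, KCNMB4, KCNQ5 and KCNS3. The labels give the tissues no shared numbers, but library numbers run in the same order of day and growth class in both, in 24 of 24 places. With that place as a replicate block, added after seeing the data, 76 of 80 members passed between tissues, KCNMB4 and KCNQ5 no longer passing, and 0 in the difference of the day effect. Deviations from group means correlated by -0.0686 to 0.190 within these pairs, over 0.1 in 10 of 24, and 11 of 24 hypothalamus libraries correlated best with their own number. That is a hint from the data, and the labels do not say that a number marks 1 animal. Members with few counts in a tissue, such as KCNN4 in hypothalamus, are limited by depth.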
